A study of Mus musculus with 4 samples.

Results

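Bone morphogenetic proteins (BMPs), growth differentiation factors (GDFs) and activins are secreted dimers of the TGF-β family, and antagonists in the matrix around the cell bind them and keep them from their receptors. The data here are the array readouts of 10 of these genes in mouse chondrocytes: the ligands Bmp2, Bmp4, Bmp5, Bmp6, Bmp7, Gdf5 and Inhba, and the antagonists Grem1, Nog and Fst. Members were taken by gene family, as every probe whose RefSeq transcript belongs to 1 of the 10 genes, out of 37042 genes on the array. They had 12 probes in all, since 8 genes had 1 probe and Bmp4 and Gdf5 had 2 probes each. Every one of the 12 was a single spot, and none was flagged as an outlier.

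The cells were primary chondrocytes of 6-day-old littermates, and the study asked which genes depend on Rela (the p65 subunit of NF-κB) when tumour necrosis factor (TNF) acts on them. There were 4 arrays, each of 1 condition. Both alleles of Rela were floxed in all 4. Cells of Rela fl/fl mice carried no Cre and cells of Prrx1-Cre; Rela fl/fl mice (cKO) carried Cre under the Prrx1 promoter, which is active in limb mesenchyme, and each genotype was cultured for 3 days with 10 ng ml−1 TNF or without TNF. Only cells in which Cre has acted lose Rela, so a cKO culture can hold undeleted cells. With 1 array per condition, no difference below has a replicate check and none was tested.

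Signals are given on a scale where the 75th percentile of an array is 1, and differences are on the log2 scale, so that 1 is a doubling. Levels are compared between arrays for the same probe, never between probes. Probes spotted 10 times varied between spots of 1 array with an SD of 0.095 to 0.10, which gives 0.14 for the difference of 2 spots, here called the technical SD, and 0.28 (2 SDs) was used as the technical limit. That SD was 0.26 for dim probes with signals under 0.3, 0.11 for signals of 0.3 to 3 and 0.081 above 3. It holds no spread of labelling or hybridisation between arrays, nor that between cultures or mice. A gene was counted as past the main limit at a log2 difference of 1 or more with the brighter array well above background, and a patch is a region of an array where neighbouring spots were bright on that array alone.

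Between 50.9% and 58.1% of probes were well above background on an array, and no spot was saturated. The 4 arrays lay on 1 slide and were scanned together. All 7 chondrocyte markers were well above background on all 4 arrays, with summed signals from 1178 to 1443, and so were all 6 fibroblast-like markers, with sums from 565 to 646. Of the 5 leukocyte and macrophage markers on the array, Csf1r, Adgre1, Lyz2 and Cd14 were well above background on all 4 arrays and Ptprc on none, and the signals of the 5 summed to 3.76 to 4.22. Of 4 endothelial markers, Pecam1 and Kdr were (sums over the 4 from 17.7 to 20.7) and Cdh5 and Tek were not, and of 4 muscle markers Acta1 was, Des on 1 array and Myod1 and Myog on none (sums over the 4 from 1.73 to 2.70). The 3 synovial lining markers were well above background throughout, with sums from 6.52 to 11.6. Rela itself was at 28.3 in Rela fl/fl cells, 34.7 with TNF, 33.9 in cKO cells and 40.2 with TNF, so its probe does not show the deletion, and the probe's place relative to the floxed exons is not given in the sources used here. Xist cleared the background in both cultures of Rela fl/fl cells and in neither cKO culture, and the Y-linked genes Ddx3y and Eif2s3y were 1.49 to 1.83 higher (log2) on the cKO arrays. Genotype and sex therefore cannot be told apart in any comparison of the genotypes. In bulk RNA, fewer cells that use a gene and less RNA per cell cannot be told apart either.

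BMP dimers bind type I and type II receptors, which phosphorylate Smad1, Smad5 and Smad9, and these switch on genes such as Id1 and Smad6. Activin A, the dimer of the Inhba product, acts through Smad2 and Smad3. In the limb, BMPs drive condensing mesenchyme to become cartilage, Gdf5 marks the forming joint, and Noggin and Gremlin limit BMP action.

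The promoters of the members the results turn on are shown first. RefSeq start-site windows of build GRCm38.p6 were at hand for 5 of the 10 members, and those of Inhba (chr13:16011601-16011900, plus strand), Bmp5 (chr9:75775115-75775414, plus strand) and Bmp4 (chr14:46390620-46390919, minus strand) are printed. They were chosen because, by main probes, the first 2 hold the differences past the main limit and Bmp4 was among the steadiest ligands. Each window runs from 250 bases before to 50 after the transcription start, 5′ to 3′ on the strand of the gene. For Bmp5 and Bmp4 this start is the outer end of the gene as RefSeq lists it, whereas the start used for Inhba lies inside the listed gene, downstream of its outer end, so other Inhba starts are not shown. Capitals mark matches, on either strand, to 4 motifs: a relaxed NF-κB motif GGGNNNNNCC, the AP-1 motif TGANTCA, the Smad palindrome GTCTAGAC and the TATA box TATAAA.
Inhba promoter: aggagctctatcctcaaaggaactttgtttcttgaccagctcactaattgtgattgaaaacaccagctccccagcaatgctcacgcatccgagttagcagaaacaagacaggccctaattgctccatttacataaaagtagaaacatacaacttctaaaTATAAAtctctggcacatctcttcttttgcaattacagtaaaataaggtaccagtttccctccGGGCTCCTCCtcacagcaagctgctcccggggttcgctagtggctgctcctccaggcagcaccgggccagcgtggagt
Bmp5 promoter: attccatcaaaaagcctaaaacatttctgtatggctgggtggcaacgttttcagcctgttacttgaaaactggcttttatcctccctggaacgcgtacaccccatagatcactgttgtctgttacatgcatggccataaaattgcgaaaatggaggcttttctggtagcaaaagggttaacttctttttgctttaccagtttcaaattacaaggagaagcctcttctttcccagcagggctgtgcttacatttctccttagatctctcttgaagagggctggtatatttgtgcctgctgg
Bmp4 promoter: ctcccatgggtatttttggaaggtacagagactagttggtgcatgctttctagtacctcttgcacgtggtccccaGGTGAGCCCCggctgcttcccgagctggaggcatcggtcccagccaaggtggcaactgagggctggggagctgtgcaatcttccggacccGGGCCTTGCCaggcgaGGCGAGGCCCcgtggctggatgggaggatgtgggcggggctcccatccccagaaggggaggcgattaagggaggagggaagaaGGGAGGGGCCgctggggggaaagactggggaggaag

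The Inhba window held 1 TATA box (from base 160 of the window) and 1 relaxed NF-κB match, GGGCTCCTCC, from base 223. The Bmp5 window held none of the 4 motifs, and the Bmp4 window held 4 relaxed NF-κB matches and no other. Among the 2 members not printed, the Grem1 window held 3 such matches, of which 2 on opposite strands overlap, and the Bmp6 window held none. GGGNNNNNCC was present in 50.8% of the 32851 promoters of this length, TATAAA in 13.6%, TGANTCA in 7.81% and GTCTAGAC in 0.213%. A match is a string of letters in this window and not a binding site.

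**Figure D1:**
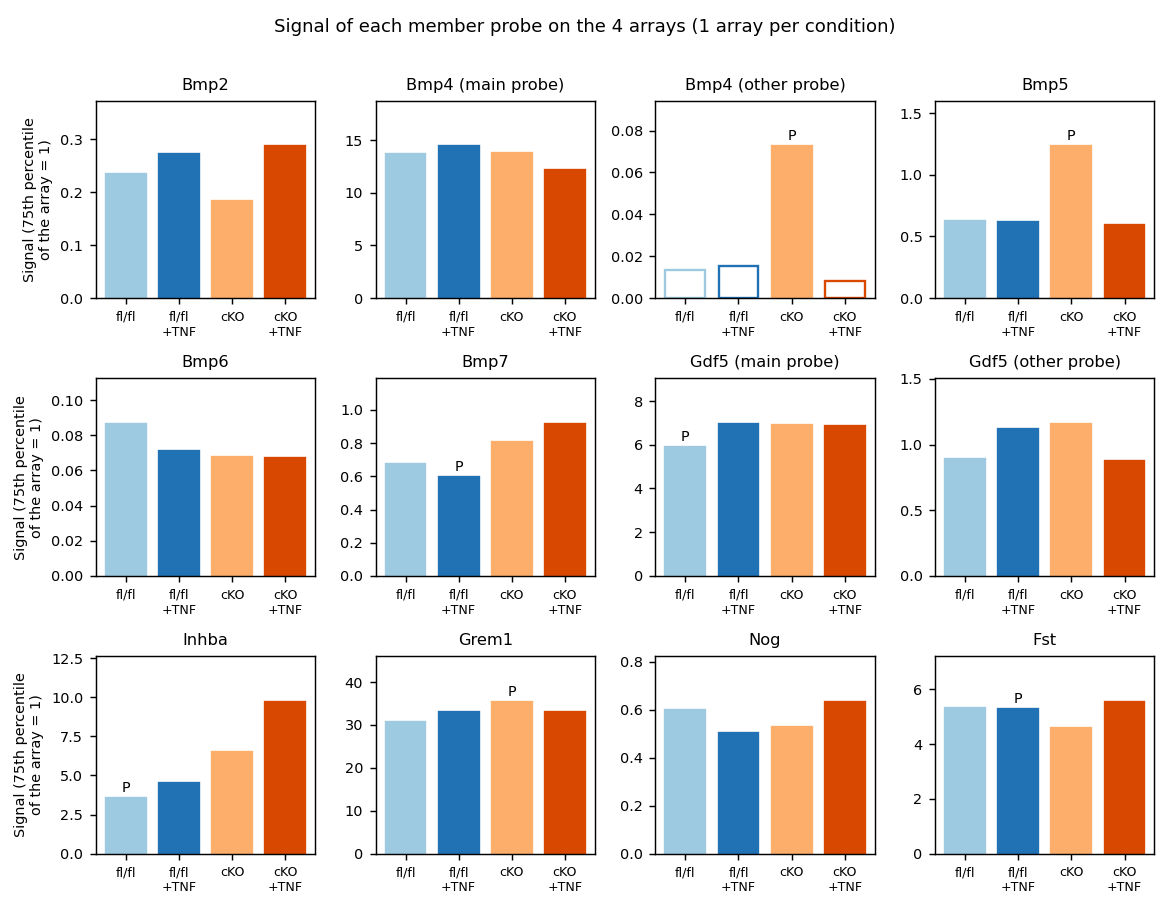
Signal of each member probe (y axis, linear, with the 75th percentile of the array as 1) on the 4 arrays, 1 bar per array and no error bar because each condition had 1 array. White bars were not well above background and P marks a spot in a bright patch of that array. The 4 Inhba bars step up from 3.58 to 9.72, and the Bmp5 bar of cKO cells without TNF, at 1.23, stands above the other 3 arrays.

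Inhba encodes the βA subunit of activin A. Its probe (A_51_P239750) read 3.58 in Rela fl/fl cells, 4.51 with TNF, 6.50 in cKO cells and 9.72 with TNF. The 4 arrays thus lay in that order, both cKO arrays above both Rela fl/fl arrays. The 3 steps between neighbours in the order were 0.33, 0.53 and 0.58 (log2), each larger than 0.161, which is 2 technical SDs for signals above 3. Its whole range, 1.44 or 2.71-fold, was the widest among the 10 members by their main probes. In cells with TNF, Inhba was 2.15-fold higher in cKO than in Rela fl/fl cells (log2 difference 1.11), and without TNF it was 1.81-fold higher (0.86). TNF was accompanied by 1.26-fold higher Inhba in Rela fl/fl cells (0.33) and 1.5-fold higher in cKO cells (0.58). These TNF differences were themselves 0.25 apart between the genotypes.

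The Inhba spot lay in a patch on 1 array, that of Rela fl/fl cells without TNF, which gave the lowest Inhba signal of the 4. With TNF the genotype difference uses 2 arrays on which the spot lay outside patches, and it was between 1.04 and 1.11 under every scaling, background correction and filter tried that kept the spot. Transcripts of marker lists also differed between the genotypes. The 3 osteoblast markers on the array were all higher on the cKO arrays: Ibsp, a bone matrix protein, by 1.14 without and 0.97 with TNF, Sp7, a transcription factor of osteoblasts, by 0.70 and 1.81 (the second a lower bound), and Alpl, alkaline phosphatase, by 0.42 and 0.52. Their summed signals were 4.93 and 4.07 on the Rela fl/fl arrays and 10.2 and 7.78 on the cKO arrays. Of the 7 chondrocyte markers, 4 were lower and 0 higher on the cKO arrays at the technical limit, both without TNF (median −0.31) and with TNF (median −0.29). They ran from Matn1, a cartilage matrix protein, at −1.85 and −1.18 to Col2a1, the main cartilage collagen, at −0.03 without TNF and less than 0.01 in size with TNF. Acan and Col9a1, counted as lower both without and with TNF, had a spot in a patch. Of the 6 fibroblast-like markers, 3 were lower and 0 higher in each of these comparisons, among them Dpt at −1.62 and −1.16, with a spot in a patch. Of all genes 12.4% were lower and 16.9% higher at that limit without TNF, and 12.1% and 17.4% with TNF. Among the leukocyte and macrophage markers, Lyz2 differed by −2.11 and −0.94, Adgre1 by 2.87 and −0.50, both with a spot in a patch, Csf1r by −0.13 and 0.05 and Cd14 by 0.31 and 0.24. In the same order, the muscle marker Acta1 differed by 0.55 and 0.54, the endothelial markers Pecam1 by 0.37 and −0.02 and Kdr by −0.05 and 0.21, and the synovial lining markers Has1 by −1.25 and 0.83, Prg4 by 0.13 and −0.53 and Cd55 by 0.21 and 0.22, those of Has1 and Prg4 with a spot in a patch. Des, another muscle marker, differed by at least 0.47 with TNF, a lower bound because the Rela fl/fl reading was raised to its floor. Without TNF it was not well above background on either array. The part of these cell type markers in the Inhba difference was not tested.

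Bmp5, a ligand that shapes ear and sternum cartilage, read 0.629 in Rela fl/fl cells, 0.616 with TNF, 1.23 in cKO cells and 0.590 with TNF. A single array, that of cKO cells without TNF, stood apart from the others, which differed from one another by less than the technical limit. Bmp5 was thus 2.09-fold lower with TNF than without in cKO cells (log2 difference −1.06), and 1.96-fold higher in cKO than in Rela fl/fl cells without TNF (0.97). In Rela fl/fl cells the TNF difference was −0.03, and with TNF the genotypes differed by −0.06. With the normexp background correction the TNF difference in cKO cells was −0.96, which ends the call, and without scaling or with quantile normalization the genotype difference without TNF was 1.01 and 1.003, which is past the limit. On the array that stands apart, and on no other, the Bmp5 spot lay in a bright patch. Without the spots in patches Bmp5 has no value in the comparisons that use this array, and the part of the patch in its readout was not tested.

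Bmp2, a ligand strongly active in cartilage and bone formation, was dim: 0.235 in Rela fl/fl cells, 0.273 with TNF, 0.183 in cKO cells and 0.287 with TNF. The cKO array without TNF was lowest and the cKO array with TNF highest. In cKO cells Bmp2 was 1.57-fold higher with TNF (0.65), past the 0.522 that 2 SDs come to for dim probes, and its spot lay in no patch. Under other processing this difference ran from 0.36, with another background correction, to 0.83, with quantile normalization. In Rela fl/fl cells it was 1.16-fold higher with TNF (0.22), and without TNF it was 1.28-fold lower in cKO cells (−0.35), both within 2 SDs for a probe this dim. None of the 3 neighbouring steps in the order of its arrays passed 0.522.

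Bmp7, a ligand studied as a protective factor for articular cartilage, read 0.675 in Rela fl/fl cells, 0.598 with TNF, 0.809 in cKO cells and 0.916 with TNF. Both cKO arrays lay above both Rela fl/fl arrays, as with Inhba. With TNF, Bmp7 was 1.53-fold higher in cKO cells (0.62), and without TNF 1.20-fold higher (0.26). TNF was accompanied by differences of −0.18 in Rela fl/fl cells and 0.18 in cKO cells, both under 0.226, which is 2 SDs for signals of 0.3 to 3. Its spot lay in a patch on the array of Rela fl/fl cells with TNF, where its signal was lowest.

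Bmp4, a ligand of early limb and cartilage growth, was bright on its main probe (A_55_P2154387), at 13.7 in Rela fl/fl cells, 14.4 with TNF, 13.8 in cKO cells and 12.2 with TNF. The 4 arrays lay within 1.18-fold of one another. The largest of its 4 differences, 1.18-fold lower in cKO than in Rela fl/fl cells with TNF (−0.24), passed 2 SDs for bright probes but not the pooled technical limit. Its other probe (A_55_P1959022) was not well above background on 3 arrays and read 0.0726 on the array of cKO cells without TNF, where its spot lay in a patch. On that probe Bmp4 was at least 2.72-fold lower with TNF in cKO cells. The main probe gave −0.17 for the same comparison, so the 2 probes of Bmp4 disagree.

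Bmp6, a ligand of hypertrophic cartilage, was dim on all 4 arrays, at 0.0865 in Rela fl/fl cells, 0.0709 with TNF, 0.0676 in cKO cells and 0.0668 with TNF. The highest and lowest arrays differed by 0.37, less than the 0.522 of dim probes, so no order of its arrays can be read. Its differences of −0.29 for TNF in Rela fl/fl cells and −0.36 between the genotypes without TNF passed the pooled technical limit but not that of dim probes.

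Gdf5, which marks joint-forming cells, read 5.91 on its main probe (A_66_P127070) in Rela fl/fl cells, 6.96 with TNF, 6.90 in cKO cells and 6.84 with TNF. Here 3 arrays lay close together and Rela fl/fl cells without TNF were lower, where the spot lay in a patch. Its other probe (A_55_P2131831), outside patches on all 4 arrays, read 0.890, 1.12, 1.16 and 0.874 in the same order. On both probes Gdf5 was higher after TNF in Rela fl/fl cells, by 0.24 and 0.33, and higher in cKO than in Rela fl/fl cells without TNF, by 0.22 and 0.38. In cKO cells with TNF the probes parted: the other probe was 1.32-fold lower than without TNF (−0.41), and the main probe differed by −0.01. The TNF differences of the genotypes were 0.25 apart on the main probe and 0.74 apart on the other, cKO being the lower on both.

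Grem1, which encodes the BMP antagonist Gremlin 1, had bright signals of 30.7 in Rela fl/fl cells, 33.0 with TNF, 35.4 in cKO cells and 33.1 with TNF. Its arrays lay within 1.15-fold of one another and no step between neighbours passed 0.161. The difference of 0.21 between the genotypes without TNF passed 0.161, the 2 SDs of bright probes, but not the pooled technical limit, and it rests on a spot in a patch of the cKO array. The other 3 differences of Grem1 passed neither.

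Nog encodes Noggin, which BMP signalling itself switches on. It read 0.597 in Rela fl/fl cells, 0.503 with TNF, 0.528 in cKO cells and 0.633 with TNF, outside patches on all 4 arrays. TNF went with 1.19-fold lower Nog in Rela fl/fl cells (−0.25) and 1.20-fold higher Nog in cKO cells (0.26), a gap of 0.51 between the genotypes. With TNF, Nog was 1.26-fold higher in cKO cells (0.33). No step between neighbouring arrays passed 0.226, although the lowest and the highest were 0.33 apart.

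Fst encodes follistatin, which binds activins almost irreversibly and some BMPs less tightly. Its signals were 5.31 in Rela fl/fl cells, 5.28 with TNF, 4.59 in cKO cells and 5.55 with TNF. The array of cKO cells without TNF stood lower. In cKO cells Fst was 1.21-fold higher with TNF (0.28), just under the pooled limit, and the genotypes differed by −0.21 without TNF and 0.07 with TNF. Against the 2.15-fold for Inhba with TNF, its antagonist Fst was 1.05-fold higher in cKO cells, on arrays where its spot lay in a patch in Rela fl/fl cells.

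**Figure D2:**
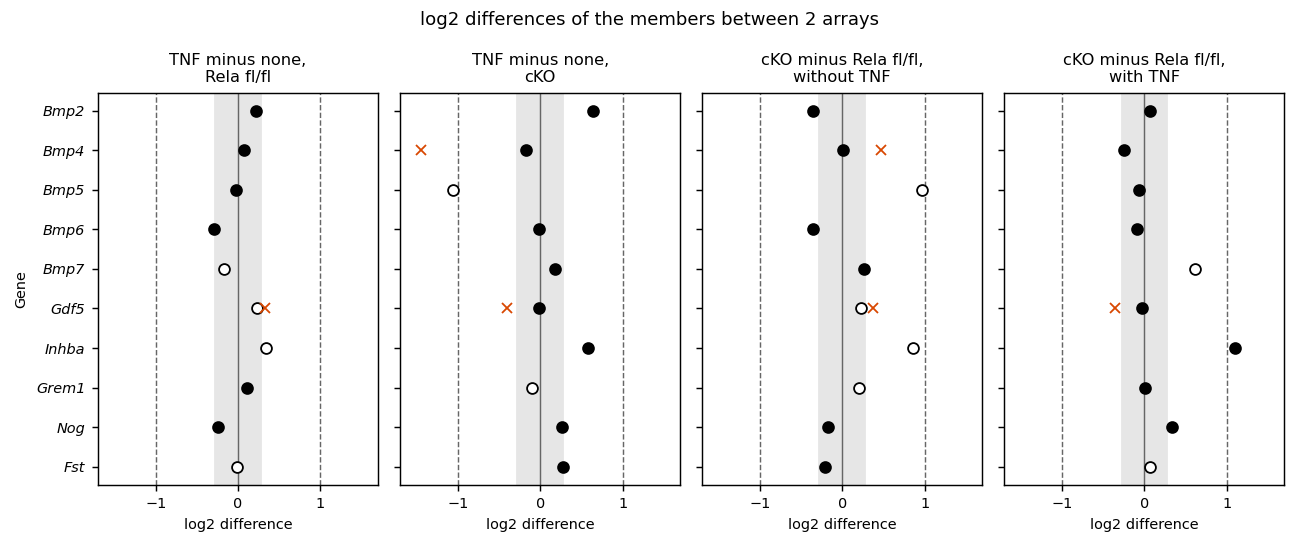
log2 difference (x axis) of each member (y axis) in the 4 comparisons, 1 point per main probe. Open points used a spot in a patch of either array, crosses are the other probes of Bmp4 and Gdf5 where at least 1 array was well above background, the grey band is 2 technical SDs (0.28 either way) and dashed lines mark the limit of 1; Inhba at 1.11 and Bmp5 at −1.06 are the points of main probes past it.

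Over all genes tested with TNF in Rela fl/fl cells, 2.39% were higher and 4.26% lower at the main limit, and 11.5% and 12.2% at the technical limit. At the main limit the members gave 0 of 10 in either direction, and at the technical limit 1 higher (Inhba) and 1 lower (Bmp6). The median difference of the 10 was 0.03 against 0.01 over all genes. These shares are near the background. Of 13 control genes, textbook NF-κB targets, 9 were higher at the main limit with TNF, with a median of 1.51. This list, like the others, was chosen with earlier results of these data known.

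In cKO cells, TNF went with 1.04% of genes higher and 4.44% lower at the main limit, and 14.0% and 15.8% at the technical limit. Among the members 0 were higher and 1 (Bmp5) lower at the main limit, and 2 (Bmp2 and Inhba) were higher and 1 (Bmp5) lower at the technical limit. Their median was 0.08 against 0.06 over all genes. Of the 13 control genes, 4 were higher at the main limit here, with a median of 0.62 over the 12 that could be measured.

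Without TNF, 3.53% of genes were higher and 4.38% lower in cKO than in Rela fl/fl cells at the main limit, and 16.9% and 12.4% at the technical limit. No member passed the main limit, and 2 were higher (Bmp5 and Inhba) and 2 lower (Bmp2 and Bmp6) at the technical limit. The members' median of 0.11 stood beside 0.01 over all genes. With TNF, 1.17% were higher and 3.19% lower at the main limit, and 17.4% and 12.1% at the technical limit. Inhba alone was past the main limit, as 1 of 10 higher, and Bmp7, Nog and Inhba made 3 of 10 higher at the technical limit with 0 lower. Their median was 0.04 against 0.06 over all genes. Of all genes measured in that comparison, 99.1% had a lower difference than Inhba and 96.0% a lower one than Bmp7. The 4 comparisons share arrays, so their counts are not independent.

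**Figure D3:**
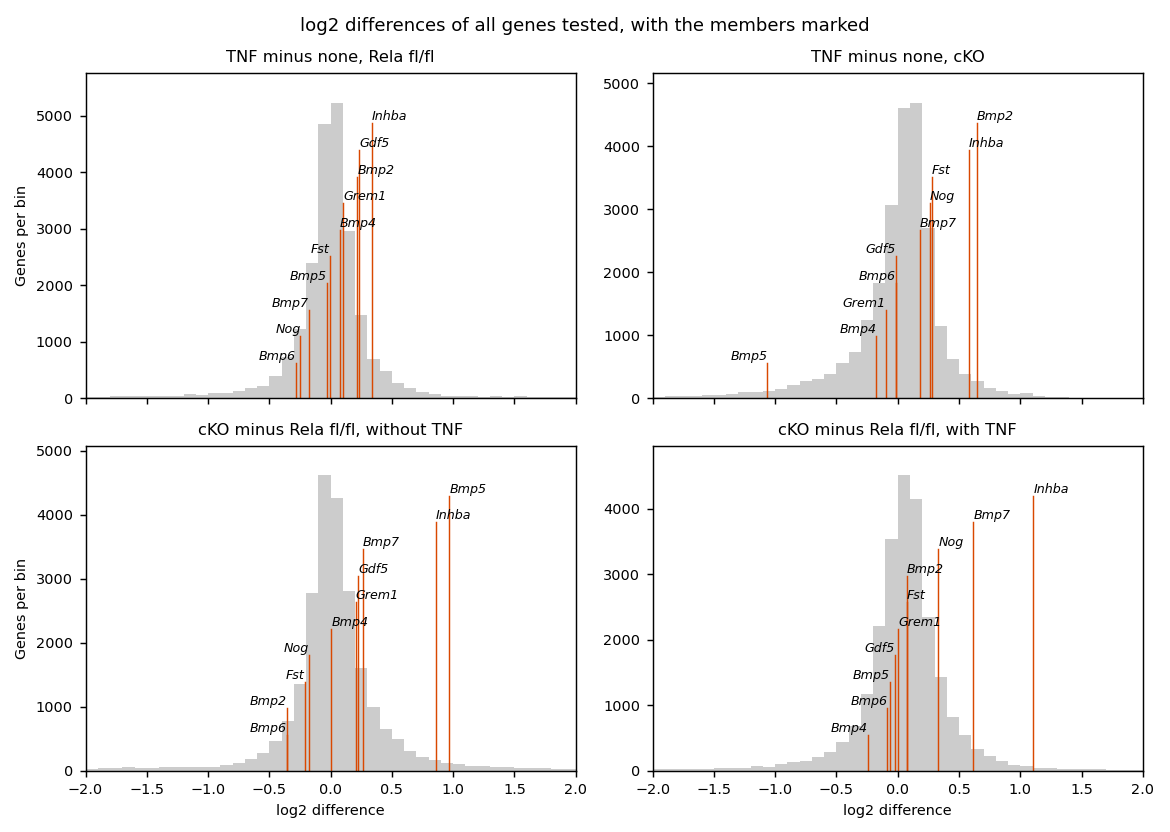
Number of genes (y axis) in bins of 0.1 of the log2 difference (x axis, drawn from −2 to 2) in the 4 comparisons, with a line for each member; heights of the lines only separate the labels. Most members lie within the bulk of all genes, with Bmp5 at −1.06 in cKO cells with TNF and Inhba at 1.11 between the genotypes with TNF toward the edges.

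The other 23 ligands of the family were listed by function. With TNF in Rela fl/fl cells 17 could be measured, of which 0 were higher and 2 lower at the main limit, Bmp10 and Gdf2. Of all genes 2.39% were higher and 4.26% lower. Without TNF, 2 of 17 were lower in cKO cells, again Bmp10 and Gdf2, beside 4.38% of all genes. With TNF 1 of 16 was lower, Bmp3, beside 3.19%. TNF in cKO cells gave 0 of 15 in either direction, beside 1.04% of all genes higher and 4.44% lower. Bmp10, a heart ligand, read 0.0858 in untreated Rela fl/fl cells and was not well above background on the other 3 arrays. The spots of Gdf2 and Bmp3 lay in a patch, and these 2 genes are named after their values were seen. At the technical limit the ligand counts were 4 higher and 4 lower in TNF-treated Rela fl/fl cells and 5 and 4 between the genotypes with TNF, so they split both ways.

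Among the 15 other antagonists, 13 could be measured in each comparison. Chrdl2, a chordin-like antagonist of cartilage, read 1.02, 0.735, 0.405 and 0.409 in Rela fl/fl cells without and then with TNF and in cKO cells likewise, so both cKO arrays lay below both Rela fl/fl arrays. The cKO minus Rela fl/fl difference was −1.34 without TNF and −0.85 with TNF. Sostdc1, which blocks BMPs and Wnt, was dim at 0.0874 and 0.0784 in Rela fl/fl cells, was not well above background in cKO cells without TNF and read 0.0527 there with TNF. The spots of Chrdl2 and Sostdc1 lay in no patch.

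Of 16 receptors and co-receptors, 13 could be measured. The type I receptor Bmpr1a was bright and steady, at 5.42 in Rela fl/fl cells, 5.91 with TNF, 5.19 in cKO cells and 5.24 with TNF. Bmpr1b, the type I receptor that Gdf5 prefers, read 0.227, 0.283, 0.278 and 0.431 in that order and was 0.63 higher with TNF in cKO cells and 0.61 higher in cKO than in Rela fl/fl cells with TNF. Acvr1, a type I receptor, differed by 0.12 to 0.16 in the 4 comparisons. The type II receptor Bmpr2 was 0.25 higher in cKO cells without TNF and 0.33 higher with TNF. The activin type II receptors parted: Acvr2a read 0.572 in Rela fl/fl cells with TNF against 0.240 to 0.254 on the other 3 arrays (1.17 higher with TNF, and −1.25 between the genotypes with TNF), and Acvr2b differed by −0.33 to 0.24. The spots of Acvr2a and Acvr2b each lay in a patch on at least 1 array. No other receptor passed the main limit.

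None of 10 Smads and Smurf ligases passed the main limit in any comparison. Smad1 was 0.37 higher after TNF in Rela fl/fl and 0.09 higher in cKO cells, and Smad5 differed by 0.05 or less in size in all 4. Smad6 and Smad7 are inhibitory Smads, which BMP signalling induces as brakes. Smad6 read 3.05 in untreated and 3.06 in TNF-treated Rela fl/fl cells, and 4.0 and 3.52 in cKO cells, a difference past the technical limit without TNF (0.39) and under it with TNF (0.20). Smad7 read 1.07 and 1.38 in Rela fl/fl cells and 1.60 and 1.85 in cKO cells (0.59 and 0.42 higher), and with TNF it was 0.38 higher in Rela fl/fl and 0.21 higher in cKO cells.

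The 15 genes of the BMP target list, of which Nog is also a member here, included 14 that could be measured, since Bambi was not well above background on any array. With TNF in Rela fl/fl cells 6 were lower and 1 (Smad7) higher at the technical limit, with a median of −0.24 against 0.01 over all genes. Of all genes 12.2% were lower and 11.5% higher there. In cKO cells with TNF 0 were higher and 4 lower (median −0.10 against 0.06), beside 14% and 15.8% of all genes. Between the genotypes 6 were higher and 1 (Msx1) lower in cKO cells without TNF (median 0.22), beside 16.9% and 12.4% of all genes. With TNF 7 were higher and 0 lower (median 0.27 against 0.06 over all genes), beside 17.4% and 12.1%. Dlx5 and Runx2 are among these 7 on dim probes, with differences of 0.31 and 0.47 that lie under the 0.522 of dim probes, and so is the −0.30 of Dlx5 among the 6 lower with TNF. At the main limit 1 of the 14 was past it in 1 comparison, Hey1 (−1.04 with TNF in cKO cells, on a spot in a patch), named after its value was seen. In that comparison 4.44% of all genes were lower at this limit. With every gene left out whose spot lay in a patch on any array, 3 were lower with TNF in Rela fl/fl cells (median −0.09) and 2 in cKO cells, and 5 were higher in cKO cells both without and with TNF. With patches of the compared arrays alone left out, these counts were 5, 2, 5 and 7. With the normexp background correction, 3 were lower in TNF-treated Rela fl/fl cells and 4 higher in cKO cells with TNF.

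Id1, the classical BMP target, read 17.1 in Rela fl/fl cells, 12.5 with TNF, 18.8 in cKO cells and 20.6 with TNF. Rela fl/fl cells with TNF were the low array. In Rela fl/fl cells Id1 differed by −0.45 after TNF. It was 0.72 higher in cKO than in Rela fl/fl cells with TNF, with a spot in a patch on at least 1 array. Id2, outside patches, gave 4.90, 3.94, 5.68 and 5.74 on the same arrays, with a TNF difference of −0.31 in Rela fl/fl and 0.01 in cKO cells. Id3, with a spot in a patch on at least 1 array, read 28.1, 25.8, 33.0 and 27.1, with −0.12 and −0.29. Atoh8, a helix-loop-helix factor downstream of BMP receptors and outside the genes fixed for naming, was 0.77 and 0.76 higher in cKO cells. Runx2, which sits on this list and is also a driver of osteoblasts, was 0.61 and 0.47 higher in cKO cells on a dim probe. The 0.61 uses a Rela fl/fl reading that was not well above background. With both arrays required to be, 5 targets were higher without TNF. The cell type markers differed between the genotypes as given beside Inhba, and their part in the list's differences was not tested.

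**Figure D4:**
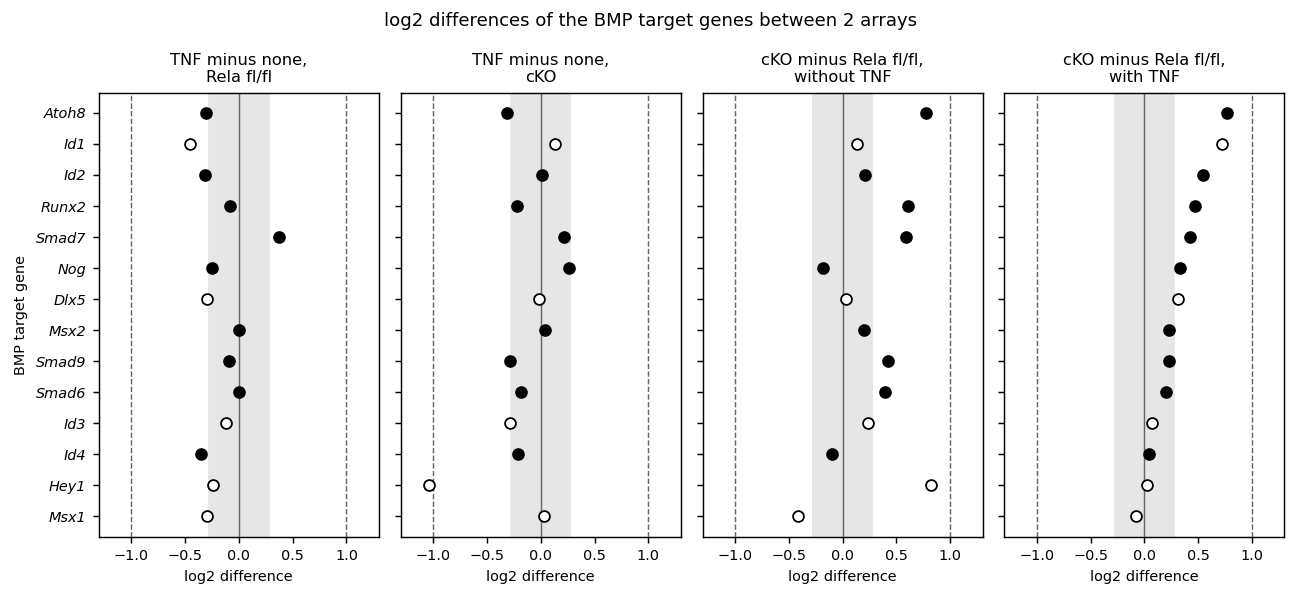
log2 difference (x axis) of the 14 measured BMP target genes (y axis, sorted by the last panel) in the 4 comparisons, with 1 point per gene. Open points have a spot in a patch on some array, the grey band is 2 technical SDs (0.28 either way) and dashed lines mark 1; in the last panel 7 genes lie right of the band, from Dlx5 at 0.31 to Atoh8 at 0.76, and none to its left.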

How the data were processed

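RNA of primary mouse chondrocytes was hybridised to 1-colour Agilent SurePrint G3 mouse arrays, 1 array for each of 4 conditions. The authors deposited the processed intensity of every spot from Agilent Feature Extraction 10.10.1.1, which subtracts the background and marks spots that are outliers or clearly brighter than it, and a table of scaled intensity values, each column being the processed intensity multiplied by its own factor (1.83, 1.77, 1.79 and 1.78), not centred and on a basis not stated, with column medians of 82.4, 74.2, 88.5 and 69.4. The array files name assembly mm9. Genes were named by RefSeq accession through a GRCm38.p6 annotation, which also gave the listed ends of the genes. Promoter windows came from a separate set of the same build.

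From the deposited intensity, log2 values minus the 75th percentile of each array were computed with Python 3.11.15 and pandas 2.3.3. Outlier spots were left out, repeat spots averaged, and each gene was represented by its brightest probe on average (37042 genes from 55619 probes). Signals not well above background were kept where they exceeded their array's lowest signal that was (0.0258 to 0.0524), and were otherwise set to it. Differences were called at a log2 limit of 1 (2-fold) or at 2 technical SDs, 0.28, from those of 399 probes spotted 10 times whose spots were all well above background and no outliers (173 to 215 an array). A patch was a spot with at least 3 neighbours, in 11 rows by 5 columns, 2-fold brighter on 1 array, and patches covered 1.04% to 10.7% of spots. Alternatives used limma 3.58.1 (normexp with an offset of 50, and quantile normalization), no scaling, the scaled table, other filters, other limits and no patches. The calling step was tested on simulated data. The number of arrays limits the precision, and with 1 array per condition no test across conditions was made. The members and gene lists were chosen with earlier results of these data known. Named were the members, Rela, 13 fixed receptors, Smads and Id genes, and list genes past the main limit outside patches, except that 1 result of the antagonist list is not reported here. Gdf2, Bmp3, Hey1, Msx1, Dlx5, Runx2, Atoh8 and the cell type markers were named outside this rule, after their values were seen.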

Additional observations from a re-analysis of the deposited data

How the results depend on the processing

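Of 408 member differences recomputed under alternatives, 390 moved by less than the technical SD, 18 moved by more and no difference that was itself larger than the technical SD changed sign. Of the 18, 3 that were smaller than that SD did: for Bmp6, −0.02 with TNF in cKO cells became 0.24 with quantile normalization and −0.09 between the genotypes with TNF became 0.06 with normexp, and for Bmp4, 0.07 with TNF in Rela fl/fl cells became −0.22 with the mean over raised probes. Counts of members past the limit of 1 did move. With 1.5-fold as the limit, 2 members were higher in cKO cells without TNF, 2 higher with TNF, and 1 was higher with TNF in cKO cells. The shares of all genes were 7.16%, 4.52% and 3.72% in that order. With 3-fold as the limit, 0 were lower with TNF in cKO cells and 0 higher in cKO cells with TNF, beside 2.58% and 0.343% of all genes. Without scaling (1.01) or with quantile normalization (1.003), 1 member, Bmp5, was higher in cKO cells without TNF, beside 3.69% and 3.36% of all genes. With normexp, 0 were lower with TNF in cKO cells (1.98% of all genes), as Bmp5 came to −0.96. With the mean over probes, 2 were lower with TNF in cKO cells (4.09% of all genes) and 1 higher in cKO cells without TNF (3.03%). The added member was Bmp4 (−1.68 and 1.21, with −0.58 between the genotypes with TNF). Those Bmp4 values average readings of its dim probe that were not well above background. With such readings raised beforehand to the floor of their array where they were under it, an alternative chosen after seeing the data, Bmp4 came to −0.81 and 0.24 and passed the limit in neither. With spots in any patch left out, 5 members had a probe, 0 were lower with TNF in cKO cells and 0 higher in cKO cells with TNF, since Bmp5 and Inhba then had none. The shares of all genes were then 1.54% and 1.04%. With only patches of the compared arrays left out, an alternative chosen after seeing the data, 0 were lower with TNF in cKO cells and Inhba alone was higher in cKO cells with TNF, with 6 to 8 members kept. Here the shares of all genes were 1.77% and 1.05%. With spots in any patch left out, Gdf5 rested on its other probe (0.33, −0.41, 0.38 and −0.36 in the order of the comparisons). With only those of the compared arrays left out, it had no value in the comparisons that use Rela fl/fl cells without TNF.

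Without scaling, the median of all genes with TNF in cKO cells was −0.05 instead of 0.06, and 7 instead of 4 BMP target genes were lower. The medians and target counts of the lists kept to within the technical SD, or 1.5 times the count, in 289 of 308 recomputations and no median that was itself larger than that SD changed sign. No paired analysis was made, since each condition had 1 array. Signals near background limit Bmp2 and Bmp6, whose technical SD is the widest.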
